A study of Mus musculus with 2 samples.

Results

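Of the 24411 genes in the files, 9 genes of the CSF1 axis and of macrophages were read by their gene symbols, in 2 libraries of mouse dorsal root ganglion (DRG) neurons. They were the ligands Csf1 and Il34, their receptor Csf1r, the adaptor Tyrobp with its partner receptor Trem2, and the macrophage markers Cd68, Aif1, Adgre1 and Mrc1. All 9 had values, on 14 of the 35034 RefSeq transcripts listed. Male C57BL/6J mice (C57BL/6 in the deposited labels) of 6 to 8 weeks, with no transgene or deletion in either group, received 200 µl of saline with 50% alum, an aluminium salt adjuvant, into the peritoneal cavity on days 0 and 14. The alum-injected group received the adjuvant alone, and its deposited label also carries the word naïve. In the alum + KLH-immunized group each injection also held 100 µg of KLH (keyhole limpet hemocyanin), an oxygen carrier of a sea snail that the mouse immune system sees as foreign. Thoracic and lumbar DRGs were collected 14 days after the second injection, digested, enriched for neurons on a BSA cushion and depleted of B lymphocytes with beads. The cells of 10 mice were pooled into 1 library per group, here named the alum pool and the KLH pool, so that no spread between mice could be measured and no test of the immunization was possible.

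Macrophages depend on signals through Csf1r, a receptor tyrosine kinase that binds the structurally unrelated cytokines CSF1 and IL-34. Tyrobp, also called DAP12, is a small membrane adaptor that carries signals of Trem2 and other myeloid receptors to the kinase Syk. Macrophages reside in the DRG around the cell bodies of neurons and multiply after nerve injury, and injured sensory neurons are known to induce Csf1. Neurons are also a known source of IL-34 in the brain. A neuron preparation can therefore be asked for the ligands on one side and for the receptor and the macrophage markers on the other.

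Values are TPM, transcripts per 1000000 transcripts of the library, in which reads are divided by transcript length, so that genes can be compared with each other within a library. The TPM of all transcripts of a gene were added up, and a gene was called detected above 3 TPM, the limit used in the study. The study lists its TPM per RefSeq transcript, whereas the limit is put here on the sums. To compare the pools, (TPM + 1) of the KLH pool was divided by (TPM + 1) of the alum pool and given on a log2 scale, which understates the change of low genes. The SD of this log2 ratio among the 500 genes closest in level, the neighbours, is given with it. This SD describes how far similar genes differed between the same 2 libraries and is not an error between mice. Read counts are not in the values, so the depth behind each TPM is unknown and neither an interval nor a detection limit was computed.

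The preparations carried the RNA of neurons, as labelled. All 8 neuronal markers were detected in both pools, at a median of 404 TPM in the alum pool and 449 TPM in the KLH pool. The 6 satellite glia markers were detected as well, at medians of 177 and 172 TPM, and 4 of 6 Schwann cell markers passed the limit. Of all genes, 45.5% were above 3 TPM in both pools. Genes that every cell uses were present throughout, with 0 of 16 listed at 0 and a lowest value of 9.47 TPM.

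The ligand Csf1 was present in both pools, whereas its receptor and the macrophage markers lay below the detection limit. Csf1 was at 16.7 TPM in the alum pool and 13.3 TPM in the KLH pool. Il34 was at 3.03 and 2.77 TPM, on either side of the limit, and neither of its transcripts alone passed it. Csf1 was thus the only one of the 9 genes above 3 TPM in both pools, against 45.5% of all genes in the files. With Il34, 2 of the 9 passed in at least one pool, against 47.7% of all genes. The plot of the 9 genes by pool shows the gap between the ligand and the remaining genes.

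**Figure D1:**
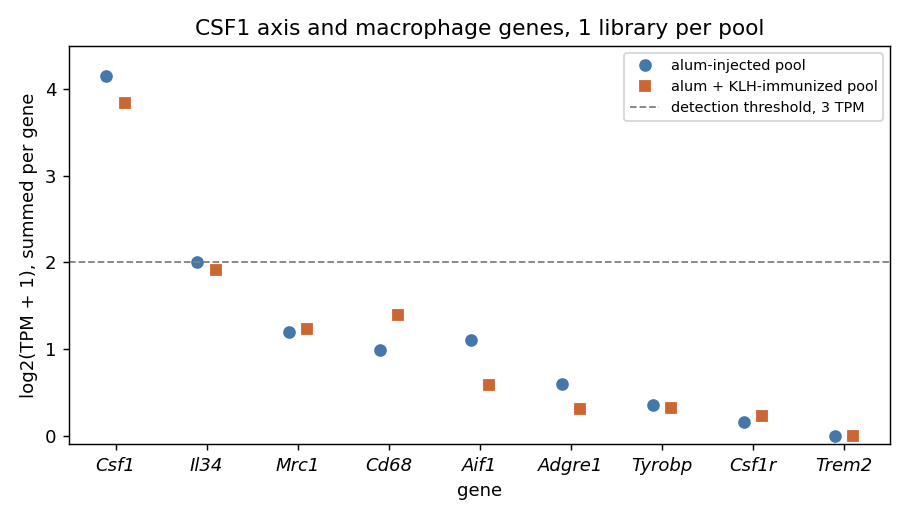
Level of each of the 9 genes as log2(TPM + 1) of its summed transcripts, in the alum pool (circles) and the KLH pool (squares), with 1 library each and no error bars. Csf1 is the only gene above the dashed 3 TPM line in both pools, Il34 lies at the line, and Trem2 is at 0.

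The rows of Csf1 code for 2 forms of the ligand. The transcripts NM_007778 and NM_001113530 share 1 coding sequence of 552 codons and NM_001113529 has 257 codons, by their matches in GENCODE M21 on GRCm38. The short form lacks an in-frame segment of 885 bases, or 295 codons, at the start of exon 6 (chr3:107748285-107749169, minus strand). The long form of CSF1 is known to be secreted after cleavage, and the short form to remain longer on the cell surface as a membrane protein. The coding sequence around this segment is shown because it is what separates the forms, with bases of the segment in capitals.
Short form, NM_001113529, across the junction: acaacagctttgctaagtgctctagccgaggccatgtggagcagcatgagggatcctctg
Long form, NM_007778, first edge of the segment: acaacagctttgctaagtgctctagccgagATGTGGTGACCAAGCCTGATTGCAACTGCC
Long form, NM_007778, last edge of the segment: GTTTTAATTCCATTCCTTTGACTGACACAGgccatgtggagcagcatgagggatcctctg

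Most of the Csf1 signal was assigned to the short form. NM_001113529 was at 12.5 TPM in the alum pool and 8.60 TPM in the KLH pool, or 74.6% and 64.5% of the gene. The long form NM_007778 was at 2.99 and 3.50 TPM. The other long transcript, NM_001113530, which ends in a different last exon, was at 1.27 and 1.24 TPM. The short form was therefore 2.93-fold above the sum of the long transcripts in the alum pool and 1.82-fold above it in the KLH pool.

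The lower Csf1 level of the KLH pool lay on the short form. Subtracting the alum pool from the KLH pool left -3.89 TPM for the short form and 0.474 TPM for the long transcripts together. For the whole gene the log2 ratio was -0.31, against an SD of 0.25 among genes of similar level, and 6.4% of those 500 genes were at least as far apart. With a pseudocount of 0.1 or 0.5 TPM in place of 1, Csf1 lay within this SD, with ratios of -0.33 and -0.32 against SDs of 0.37 and 0.35. The share of genes as far apart was 6.6% with either. Under the other alternatives that change the ratio or the SD, Csf1 stayed beyond the SD. For NM_001113529 the log2 ratio was -0.49, against an SD of 0.37 among the 500 nearest transcripts, of which 11% were at least as far apart. Only 28 of the 31-base words of NM_001113529 occur in neither long transcript, whereas 1146 words of NM_007778 are missing from the short one. The division of reads between the forms was made by kallisto, the authors' quantification tool, and its error is not in the files.

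Il34 also has 2 transcripts in the files. NM_001135100 codes for 235 codons, and NM_029646 holds an additional exon 6 of 118 bases (chr8:110746818-110746935, minus strand), a length that is not a multiple of 3. The reading frame changes after this exon, and the coding sequence of NM_029646 ends after 219 codons. The junction and the additional exon are shown because the split of the Il34 signal rests on them, with the exon in capitals.
NM_001135100, across the junction: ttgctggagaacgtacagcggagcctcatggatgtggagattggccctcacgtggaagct
NM_029646, additional exon: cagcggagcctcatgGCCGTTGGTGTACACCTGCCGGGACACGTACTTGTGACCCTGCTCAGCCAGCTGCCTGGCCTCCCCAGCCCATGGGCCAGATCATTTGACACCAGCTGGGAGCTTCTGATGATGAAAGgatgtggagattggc

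The form without this exon carried most of Il34 in both pools. NM_001135100 was at 2.66 TPM in the alum pool and 2.48 TPM in the KLH pool, or 87.8% and 89.6% of the gene. NM_029646 was at 0.370 and 0.287 TPM. The gene as a whole had a log2 ratio of -0.10, within the SD of 0.53 of genes of similar level. The Il34 locus overlaps 2 antisense genes, Gm15894 and Gm15895, and whether reads were assigned by strand is not given in the sources used here.

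**Figure D2:**
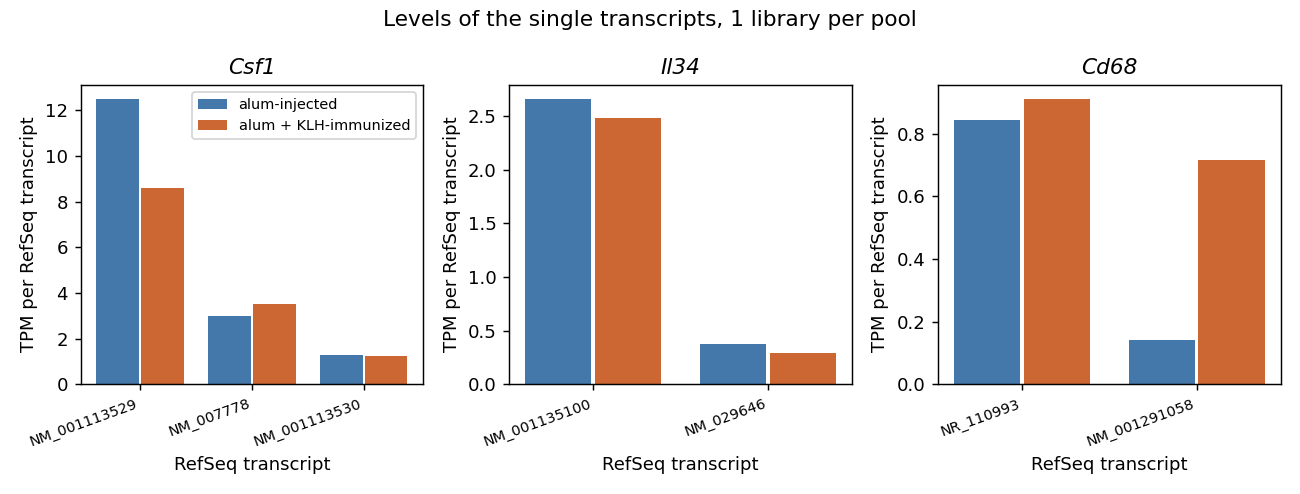
TPM of each RefSeq transcript of Csf1, Il34 and Cd68 in the alum (blue) and KLH (orange) pools, with 1 library each, no error bars and a separate linear axis from 0 for each gene. The short-form Csf1 transcript NM_001113529 is the highest bar of its gene in both pools, at 12.5 and 8.60 TPM, and NM_001291058 of Cd68 is at 0.140 and 0.716 TPM.

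The receptor of both ligands was near the bottom of the range. Csf1r, which has a single transcript in the files (NM_001037859, chromosome 18, 22 exons), was at 0.113 TPM in the alum pool and 0.167 TPM in the KLH pool. Csf1 exceeded Csf1r 148-fold and 80.1-fold in the same order. The reads behind the low Csf1r values are unknown, so these folds and the difference between them are uncertain. Of all genes, 70.7% and 68.3% were higher than Csf1r. Its log2 ratio of 0.07 lay within the SD of 0.16 of its neighbours.

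Both other proteins known to bind IL-34 were detected. Ptprz1, a receptor tyrosine phosphatase found on glia, was at 52.4 and 51.1 TPM, and Sdc1, the proteoglycan syndecan-1, was at 12.4 and 10.6 TPM. The class III receptor kinases, the family of Csf1r, were unequally represented. Kit, the receptor of stem cell factor, was at 58.1 and 56.2 TPM and its ligand Kitl at 128 and 141 TPM. Flt3 was at 15.4 and 17.7 TPM, with its ligand Flt3l at 1.91 and 1.84 TPM. The platelet-derived growth factor receptors Pdgfra, at 2.40 and 2.32 TPM, and Pdgfrb, at 1.87 and 1.68 TPM, were below the limit. Of their ligands, Pdgfa was at 9.95 and 8.53 TPM and Pdgfb at 0.324 and 0.241 TPM. Csf1r was the lowest of the 5 kinases in each pool.

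None of the other colony-stimulating factor genes was detected, with 0 of 6 above 3 TPM in both pools, against 45.5% of all genes. The granulocyte factor receptor Csf3r was the highest at 2.88 and 2.21 TPM, and the receptor chains Csf2ra, Csf2rb and Csf2rb2 ranged from 1.27 to 2.65 TPM in the alum pool and from 0.965 to 1.71 TPM in the KLH pool. The ligand Csf2 was at 1.01 and 0.699 TPM and Csf3 at 0.0493 and 0.255 TPM. In contrast, 12 of 13 signalling proteins that act downstream of Csf1r in many cell types were detected, among them the transcription factor Stat3 at 188 and 166 TPM, the kinase Mapk3 at 184 and 149.7 TPM and the adaptor Grb2 at 139.7 and 133 TPM. The median log2 ratio of these 13 genes was -0.07, beside -0.02 over the 11648 genes that passed 3 TPM in either pool.

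Tyrobp and Trem2 were among the lowest of the 9 genes. Tyrobp (NM_011662, 5 exons, chr7:30413788-30417577) was at 0.281 TPM in the alum pool and 0.246 TPM in the KLH pool. Its log2 ratio of -0.04 was within the neighbour SD of 0.20. Trem2 was listed at 0 in both pools on each of its 2 transcripts, as were 19.7% of all genes, and without read counts this value sets no upper limit.

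Genes that work with Tyrobp were low as well. Of 14 such genes, 2 were above 3 TPM in both pools, against 45.5% of all genes, and 12 were below 1 TPM in both. For scale, 56.6% of all genes were higher than Cd68, at 0.983 TPM, in the alum pool. Their median was 0.212 TPM in the alum pool and 0.259 TPM in the KLH pool, against 2.15 and 2.00 TPM over all genes. Hcst, the related adaptor DAP10, was listed at 0, the kinase Syk was at 0.622 and 0.689 TPM, and the partner receptor Trem1 at 0.608 and 0.630 TPM. The Src family kinase Lyn, at 4.30 and 3.60 TPM, and the adaptor Lcp2, at 3.47 and 5.92 TPM, were the only members of this list above 3 TPM. Lcp2 had a log2 ratio of 0.63 and Lyn of -0.21, so that neither of these 2 genes was at least 2-fold apart, as were 1.64% of all genes above that limit.

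The macrophage markers lay between 0.234 and 1.63 TPM. Mrc1, the mannose receptor CD206 of tissue macrophages (NM_008625, 30 exons, chr2:14229392-14332057), was at 1.29 TPM in the alum pool and 1.35 TPM in the KLH pool. Cd68, a glycoprotein of the lysosomes of macrophages, was at 0.983 and 1.63 TPM. Aif1, the calcium-binding protein Iba1 (NM_019467, 8 exons, chr17:35170992-35176001), was at 1.15 and 0.496 TPM. Adgre1, the surface receptor F4/80 (NM_010130, 22 exons, chr17:57358691-57483527), was at 0.506 and 0.234 TPM.

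The markers differed in both directions between the pools. Aif1 and Adgre1 were lower in the KLH pool, with log2 ratios of -0.52 and -0.29 that exceeded the neighbour SDs of 0.32 and 0.22. Of the 500 genes closest in level, 4.8% were as far apart as Aif1 and 13.6% as far as Adgre1. With a pseudocount of 0.1 TPM Aif1 lay within the SD, at -1.06 against 1.90, and Adgre1 just beyond it, at -0.86 against 0.84. Cd68 was higher, with a log2 ratio of 0.40 inside its neighbour SD of 0.70, and Mrc1 had a ratio of 0.04. With protein-coding transcripts only, which leaves out the Cd68 transcript NR_110993, the ratio of Cd68 was 0.61, beyond an SD of 0.23. Of its neighbours, 2.6% were then as far apart. On the highest transcript of each gene, the ratio of Cd68 was 0.05, inside an SD of 0.42. In a mixed preparation, fewer cells of a type and less RNA per cell cannot be told apart, and at these levels the number of reads behind a ratio is unknown.

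The higher Cd68 value was assigned to 1 of its 2 transcripts. NR_110993, noncoding by its RefSeq prefix but matched to a GENCODE transcript with 978 coding bases, was at 0.844 and 0.910 TPM, and the coding NM_001291058 was at 0.140 and 0.716 TPM. The share of the gene on NM_001291058 was 14.2% and 44.0% in the same order. The log2 ratio of 0.59 of this transcript compared with an SD of 0.48 among the nearest transcripts, of which 21.2% were at least as far apart. NM_001291058 had no match in GENCODE, so the words that separate the 2 transcripts were not counted. The error of dividing reads between them is unknown.

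Together the receptor, the adaptor pair and the 4 markers, 7 genes, summed to 4.32 TPM in the alum pool and 4.12 TPM in the KLH pool. For comparison, Snap25, the highest of the 8 neuronal markers, was at 4057 and 4279 TPM, 939.8-fold and 1039-fold above this sum. The lowest of these markers, Rbfox3, was at 60.8 and 44.6 TPM. Over all 9 genes, 5 were lower in the KLH pool, 3 were higher and 1 was at 0 in both. Lower values were found for 45.0% of all genes, with the 19.7% at 0 in both pools kept in the base. The median log2 ratio of the 9 genes was -0.04, against -0.02 over the genes tested. None of the 9 was at least 2-fold apart on the log2(TPM + 1) scale, and of the 11648 genes that passed 3 TPM in either pool, to which only Csf1 and Il34 of the 9 belonged, 1.64% were that far apart, 0.695% higher and 0.944% lower.

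**Figure D3:**
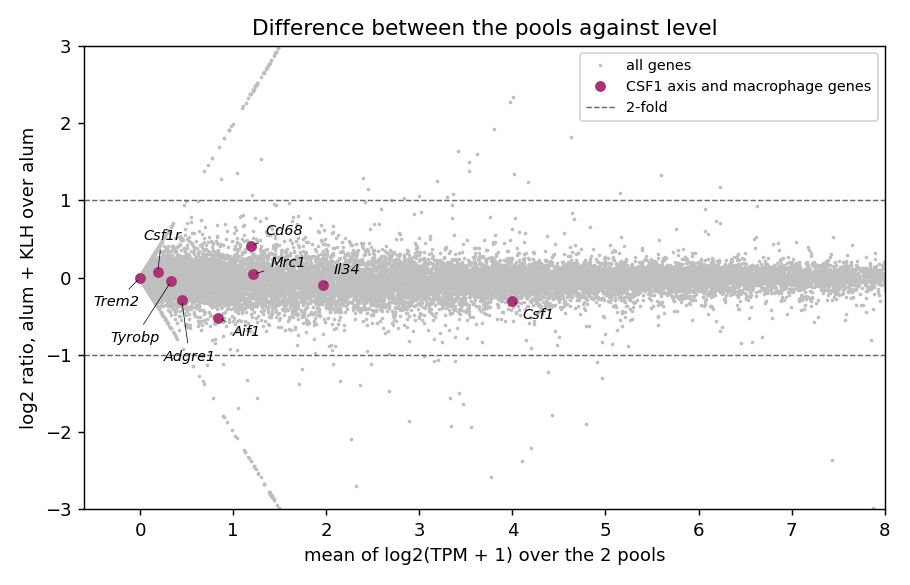
Log2 ratio of (TPM + 1) in the KLH pool over the alum pool against the mean log2(TPM + 1) of the 2 pools, for 23542 genes (grey) and the 9 genes of the CSF1 axis and macrophages (purple), with 869 genes beyond the axes not drawn. All 9 lie between the dashed 2-fold lines, with Aif1 lowest at -0.52 and Cd68 highest at 0.40.

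A wider list of 36 macrophage and leukocyte genes showed the same low level with a few exceptions. Of these, 21 were below 1 TPM in both pools. For scale, 56.6% of all genes were higher than Cd68, at 0.983 TPM, in the alum pool. The median of the list was 0.560 TPM in the alum pool and 0.509 TPM in the KLH pool, against 2.15 and 2.00 TPM over all genes. The C1q genes, which macrophages express at a high level, summed to 0.194 and 0.449 TPM over C1qa, C1qb and C1qc. Ptprc, the leukocyte antigen CD45, was at 0.438 and 0.411 TPM, and the fractalkine receptor Cx3cr1 at 2.08 and 1.66 TPM. Siglec1, the CD169 of lymph node macrophages, was listed at 0 and at 0.0166 TPM. Marco, Clec10a and Cd37 were listed at 0 in both pools.

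In both pools 7 of the 36 genes of this wider list passed the limit, against 45.5% of all genes. Ly86, which encodes the MD-1 protein that pairs with a Toll-like receptor homologue, was far above the others at 424 and 374 TPM. It was followed by Coro1a, an actin-binding protein, at 14.1 and 15.6 TPM, Lyve1, a hyaluronan receptor also found on lymphatic vessels, at 11.2 and 10.9 TPM, and the receptor kinase Axl at 8.33 and 8.77 TPM. Mertk, a receptor for dying cells, was at 5.93 and 5.90 TPM, Cd14 at 3.93 and 3.79 TPM, and the lysozyme gene Lyz2 at 3.90 and 3.86 TPM. The remaining 29 genes did not exceed 2.38 TPM in the alum pool and 2.70 TPM in the KLH pool. None of the 7 genes above 3 TPM was at least 2-fold apart, and the median log2 ratio of all 36 was -0.02. Without Ly86 the list summed to 67.1 and 68.0 TPM.

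Transcription factors of myeloid cells divided in the same way. Spi1, which encodes PU.1, the factor that drives Csf1r in macrophages, was listed at 0 in the alum pool and at 0.0436 TPM in the KLH pool. Irf8 was at 1.10 and 1.23 TPM. In contrast, Runx1 was at 70.1 and 67.0 TPM, Maf at 40.4 and 47.8 TPM and Cebpb at 10.2 and 10.8 TPM. Runx1 and Maf are also known as regulators of sensory neuron classes. These were the 3 of 10 factors detected in both pools, against 45.5% of all genes.

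Microglial genes were read because nerve macrophages share some of them. Of 7 such genes, 3 were detected in both pools, near the share of 45.5% among all genes. The detected genes included Olfml3 at 14.2 and 13.4 TPM and the purine receptor P2ry12 at 8.11 and 8.26 TPM. Tmem119 was at 0.0623 TPM and 0, and Sall1 at 0.981 and 0.689 TPM.

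Relatives of the 9 genes were often higher than the genes themselves. Aif1l, the paralog of Aif1, was at 6.02 and 5.57 TPM. Lamp1 and Lamp2, lysosomal membrane proteins of the family of Cd68, were at 498 and 505 TPM and at 1175 and 1227 TPM, whereas Lamp3, at 0.0378 TPM and 0, and Lamp5, at 0.399 and 0.458 TPM, were low. In the mannose receptor family, Ly75 was at 7.0 and 6.29 TPM, Pla2r1 at 6.04 and 5.93 TPM and Mrc2 at 0.438 and 0.384 TPM. The F4/80 relatives Adgre5 and Adgre4 were at 1.24 and 1.51 TPM and at 0.108 and 0.124 TPM. Of the 13 transcripts of the 9 genes that matched GENCODE, 11 shared no word of 31 bases with a transcript of another gene, and the exceptions were those of Il34, with 2.80% of the words of NM_001135100 and 2.66% of NM_029646.

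**Figure D4:**
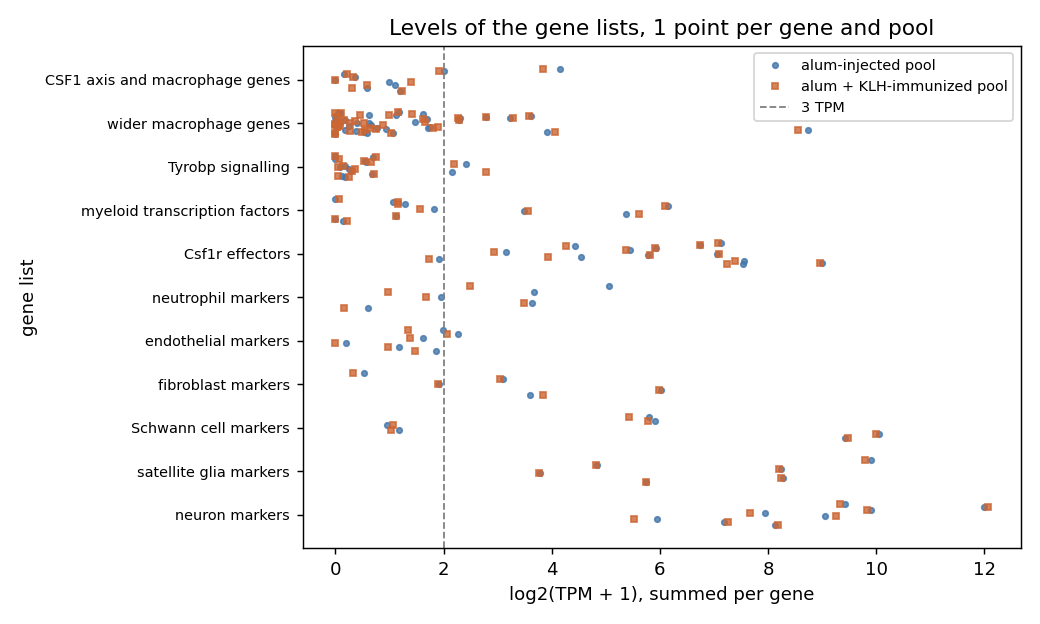
Level of every gene of 11 lists as log2(TPM + 1), 1 point per gene and pool (circles for the alum pool, squares for the KLH pool), with the dashed line at 3 TPM. The wider macrophage genes and the Tyrobp signalling genes lie mostly left of the line, with Ly86 as the far point at 424 and 374 TPM, while all neuron and satellite glia markers lie to its right.

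Among the genes of the 21 lists above 3 TPM in either pool, only the neutrophil genes S100a8 and S100a9 were at least 2-fold apart. All 5 neutrophil markers in the files were lower in the KLH pool. Of all genes, 45.0% were lower, with the 19.7% at 0 in both pools, which could not be lower, kept in the base. The sum of the 5 markers was 58.8 TPM in the alum pool and 18.1 TPM in the KLH pool. S100a8 was at 32.3 and 4.59 TPM and S100a9 at 11.7 and 0.962 TPM, with log2 ratios of -2.58 and -2.69. Cxcr2 was at 11.4 and 10.2 TPM and Retnlg at 0.513 and 0.112 TPM, and no marker of this list was at 0. The 6 endothelial markers had sums of 12.8 and 9.02 TPM. All 6 were lower in the KLH pool, but 0 were 2-fold apart. Only 1 was above 3 TPM in both pools, against 45.5% of all genes. The part of these cells in the lower values of Aif1, Adgre1 and Csf1 was not tested.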

How the data were processed

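RNA-seq was analysed from 2 libraries, 1 per group, each from the pooled DRG neurons of 10 mice. The authors prepared stranded mRNA libraries, trimmed paired-end reads with cutadapt, quantified them with kallisto on the annotated mm10 transcriptome, and deposited TPM per RefSeq transcript, scaled to 1000000 per library. Tool versions are not given in the sources used here.

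TPM was summed per gene symbol. The pseudocount was 1 TPM, the detection limit 3 TPM and the fold limit 2. With 1 library per group, no test was made. The 9 genes and the 21 gene lists, counting the 9 genes as a list, were chosen with earlier results of these data known. From each list the 4 highest genes and any gene at least 2-fold apart above 3 TPM could be named, the ligand, receptor family and paralog genes regardless of level, and for a detected member the 3 genes nearest in level. Other genes named, among them Siglec1, Ptprc, Cx3cr1, Spi1, Hcst, Irf8, Mertk, Cd14, Lyz2, Retnlg, Tmem119, the C1q genes and those listed at 0, were chosen after their values were seen. Positions and sequences came from GENCODE M21 on GRCm38, the assembly of mm10, and its RefSeq table matched 13 of the 14 transcripts. Python 3.11.15, numpy 2.4.6, pandas 2.3.3 and matplotlib 3.10.9 were used, and the calculation was tested on simulated data. The alternatives were other pseudocounts, limits, filters and numbers of neighbours, rescaling to the median ratio or to Hprt, protein-coding transcripts only, and the highest transcript of each gene. Single values of 2 listed genes are not reported here.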

Additional observations from a re-analysis of the deposited data

How the results depend on the processing

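The log2 ratios of the 9 genes, the detection and 2-fold counts and the medians of the lists were recomputed under 12 alternatives. The transcript shares, the folds between genes and the nearest genes were not. The detection limits, the filters and the number of neighbours do not enter these ratios, and Trem2 was at 0 throughout. Many of the 108 recomputed log2 ratios of the 9 genes were therefore fixed in advance, and their number is no measure of stability. Of the 108, 3 moved by more than the neighbour SD, all with a pseudocount of 0.1 TPM, namely Csf1r to 0.32, Aif1 to -1.06 and Adgre1 to -0.86. With this pseudocount 1 of the 9 genes, Aif1, was at least 2-fold apart, and 1 in place of 3, Adgre1, had a ratio beyond the neighbour SD. With a pseudocount of 0.5 TPM 2 genes did, and with protein-coding transcripts only 4 did, Cd68 among them. The ratio of Csf1 ranged from -0.49, on its highest transcript, to -0.29. Detection above 1 TPM gave 3 of the 9 genes in both pools, and above 0 TPM 8. In the same settings the count of wider macrophage genes went from 7 to 14 and 29, and to 3 above 10 TPM. Myeloid transcription factors went from 3 to 7 and 8, and Tyrobp signalling genes from 2 to 12 above 0 TPM and to 0 above 10 TPM. Across all genes tested, 81 were at least 2-fold higher and 110 lower. With protein-coding transcripts only, rescaled to the same total, 4 and 13 genes passed this limit, of which 4 and 9 were among those above, and with genes above 10 TPM 25 and 49 did. The lower limit on genes tested accounts for the latter, and the cause of the former was not tested. Rescaling by the median ratio shifted all log2 ratios of high genes by 0.02, and by Hprt by -0.08. No paired analysis was possible because each group has 1 library, and for the same reason no library could be left out. TPM holds no read counts, so what depth limits is unknown.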

Other observations

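Genes of macrophages given type 2 cytokines were low in both pools. None of the 5 genes of this list was above 3 TPM in either pool, against 47.7% of all genes in at least one. Their sum was 3.19 TPM in the alum pool and 1.63 TPM in the KLH pool. Chil3, a chitinase-like protein, was at 1.34 and 0.297 TPM, the arginase gene Arg1 at 1.04 and 0.544 TPM, the lectin gene Mgl2 at 0.725 and 0.632 TPM and Cd209a at 0.0898 and 0.0386 TPM. Of the 5 markers of fibroblasts, a further known source of Csf1, 3 were above 3 TPM in both pools, against 45.5% of all genes. These were Dcn at 63.8 and 62.6 TPM, Lum at 11.2 and 13.2 TPM and Col1a2 at 7.57 and 7.26 TPM.

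Few lymphocyte, mast cell and red cell genes passed the limit, and none did so in both pools, against 45.5% of all genes. Of 6 T and natural killer cell markers, 0 were above 3 TPM in both pools, and Cd3d was the highest at 2.97 and 3.13 TPM. The 5 B cell markers stayed below 1 TPM, with Cd22 at 0.792 and 0.764 TPM. The mast cell genes Cpa3 and Ms4a2 were at 2.07 and 1.86 TPM and at 1.66 and 1.29 TPM. The red cell markers summed to 5.35 and 1.95 TPM, with Hba-a1 at 4.15 and 1.62 TPM.

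The 3 genes nearest to Csf1 over both pools were Srrt, at 16.7 and 13.1 TPM, Amigo3, at 16.5 and 13.5 TPM, and Usp35, at 16.6 and 13.6 TPM. Their distances from Csf1 on the log2(TPM + 1) scale were 0.03 each, over 2 libraries, which is too few to define a shared pattern.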
